A study of Homo sapiens with 6 samples.

Results

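The intestinal lineage genes described here are 9 human genes that give the intestinal epithelium its identity, and the contact maps of 4 cancer cell lines were read at each of them. The members are the transcription factors *CDX2*, *CDX1*, *HNF4A* and *KLF5*, the stem cell receptor *LGR5*, and the products of differentiated gut epithelium *VIL1*, *CDH17*, *LGALS4* and *GPA33*. For each gene, the 40-kb bins that overlap its canonical transcript and 1 Mb on either side were taken. This gave 20 bins over the genes and 470 bins with the flanks, of which 458 were usable, out of 75918 bins on the autosomes and X. The rule names the genes by their known role and uses no measured value, although the choice was made with earlier results of these data known. All 9 could be measured. They stand among 20090 protein-coding genes, to which the same measures were applied as a background.

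Hi-C joins and sequences pairs of DNA fragments that lie close together in the nucleus, so each value is a frequency of contact and not a level of RNA. SW480 and SNU-C1 are labelled as colon cancer cell lines, HCC1954 as a breast cancer cell line and OE33 as an esophageal adenocarcinoma cell line, and all were grown without a treatment named in the labels. There were 2 replicate maps of SW480, a further SW480 map without a number, and 1 map of every other line. In the unnumbered map, 99.9% of bin pairs had the sum of the read pairs of both replicates, so it was taken as their pool. The pool stood for SW480 and was not counted as a further sample. As no RNA was measured, the labelled cell types could not be checked against their markers. Cultured tumor lines carry gains, losses and joins of chromosomes, and the question here was how SW480 and SNU-C1 compared with HCC1954 and OE33 at genes of the intestine.

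In the gut, CDX and HNF4 factors bind the enhancers of enterocyte genes and keep the epithelium intestinal, and LGR5 marks the crypt cells that renew it. On the scale of chromosomes, active chromatin gathers in one compartment (A) and inactive chromatin in another (B), and genes can lie in different compartments in different cell types. Within compartments, neighbouring sequence folds into topologically associating domains (TADs), whose boundaries often hold binding sites of CTCF and hold back contacts between the domains.

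Within chromosomes, OE33 had 89428875 read pairs, HCC1954 93487364, SNU-C1 115015939 and SW480 133387171, of which 65990548 came from replicate 1 and 67372948 from replicate 2. Signal other than that within an autosome or X made up 33.5% in OE33, 17.4% in HCC1954, 14.2% in SNU-C1 and 0.220% in SW480. Contacts between chromosomes are part of this signal. It is not stated if they were left out of the deposited SW480 maps, so the SW480 value cannot be read as their rate. The sum of the values of a bin was even within each chromosome in SW480 (median coefficient of variation 0.00186) and uneven in the other lines (0.0940 to 0.157). No source says if the correction was run alike in all lines. Expected values were taken per chromosome. They do not even out bins within a chromosome, and the measure of insulation below does not use them. The part of this difference between lines in the measures was not tested. Every line but SW480 has 1 map, and 2 lines against 2 can be split in 6 ways, so an exact test could not go below a two-sided p of 0.333 and none was made. A gene was called where both colorectal lines lay above, or both below, the other lines and the gap between the nearest lines passed the 95th percentile of the difference between the SW480 replicates over all protein-coding genes. The paper describes its Hi-C replicates as biological. The titles of these maps give only a replicate number, so that spread may still be technical, and it was measured in SW480 alone.

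The compartment value is the position of a 200-kb block, in SD units, along an axis of the contact patterns of its chromosome. Of the first 3 axes, the one that followed gene density most closely was taken in each map. The value is positive for blocks that share contacts with gene-rich chromatin. Of the 9 members, 7 had a value above 0 in all 4 lines, and 67.6% of all genes did. *LGR5* and *GPA33* were the exceptions. Both colorectal lines lay higher by more than the replicate spread of 0.255 at 3 members, *LGR5*, *GPA33* and *HNF4A*, and at 4.26% of all genes. No member was lower by that rule, and 4.3% of all genes were. By any gap, 6 members were higher (24.1% of all genes) and 1, *LGALS4*, was lower (13.3% of all genes). On chromosome 19, which holds *LGALS4*, SW480 was on another axis than the other lines. On chromosome 4, which holds no member, HCC1954 was. The counts, shares and medians here include these genes. The median difference between the means of both pairs of lines was 0.34 over the members and 0.06 over all genes.

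**Figure D1:**
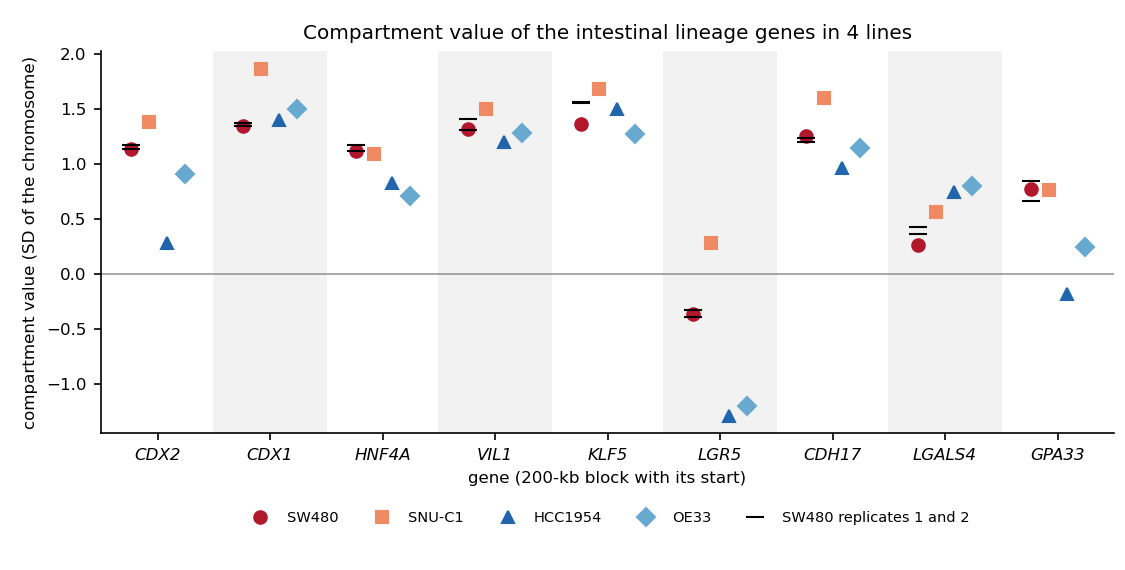
Compartment value (y axis, in SD of the chromosome) of the 200-kb block with the start of each gene (x axis) in SW480, SNU-C1, HCC1954 and OE33, 1 symbol per line, with SW480 replicates 1 and 2 as dashes. Both colorectal lines lie clear of the other lines at LGR5, HNF4A and GPA33, and LGR5 is the lowest of the 9 genes in all 4 lines.

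*LGR5*, which encodes a receptor for R-spondins on intestinal stem cells, showed the widest gap. Its block, 71.8 to 72.0 Mb on chromosome 12, had a value of 0.28 in SNU-C1, -0.37 in SW480 (-0.39 in replicate 1 and -0.33 in replicate 2), -1.29 in HCC1954 and -1.2 in OE33. SNU-C1 was thus above 0, SW480 just below it, and HCC1954 and OE33 lay together near the bottom of the scale. The gap between SW480 and OE33 was 0.83, and the mean of the colorectal lines exceeded that of the other lines by 1.2. Among all genes the value ranked at percentile 27.5 in SNU-C1, 14.3 in SW480, 4.69 in OE33 and 3.67 in HCC1954. When blocks were scored instead by their contacts with gene-rich against gene-poor blocks, the mean difference was 0.48 and the call was lost.

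The surroundings of *LGR5* differed between the colorectal lines. In SNU-C1, 7 of the 11 blocks within 1 Mb were above 0, against 0 in SW480, 0 in HCC1954 and 1 in OE33. *TSPAN8*, a tetraspanin gene expressed in gut epithelium, starts 2 blocks upstream, where SNU-C1 reached 0.76 and SW480, HCC1954 and OE33 had -1.03, -0.78 and -1.42. The block of *LGR5* was the only one of the 11 in which SW480 and SNU-C1 were both called above the others. *LGR5* is also the only protein-coding gene that starts in its block, and the value of the block includes sequence outside the gene. Across the SW480 replicates, SNU-C1, HCC1954 and OE33 (5 maps), the genes outside this block with the nearest pattern were *OTUD7A* on chromosome 15 (Euclidean distance 0.34) and *ANO4* on chromosome 12 (0.37).

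*GPA33*, the gene of the A33 antigen on the surface of gut epithelium, lay in a block at 167.0 to 167.2 Mb on chromosome 1, shared with *POU2F1* and *STYXL2*. Its value was 0.76 in SNU-C1, 0.77 in SW480 (0.66 in replicate 1 and 0.84 in replicate 2), 0.24 in OE33 and -0.18 in HCC1954. The colorectal lines were level with each other, 0.013 apart, and the gap to OE33 was 0.52. Only HCC1954 was below 0. The call was kept under each of the 8 alternatives tried for the compartment value, although the rule of any gap could not lose it. The block downstream of the gene, which holds *POGK*, *TADA1*, *ILDR2* and *MAEL*, moved with it, with -0.04 in SNU-C1, 0.03 in SW480, -0.92 in HCC1954 and -0.46 in OE33. From there the values fell away in every line, and the next 4 blocks lay between -0.98 and -1.58. *GPA33* thus sat beside a step down in all 4 lines, which began above 0 in SW480, SNU-C1 and OE33 and below 0 in HCC1954.

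**Figure D2:**
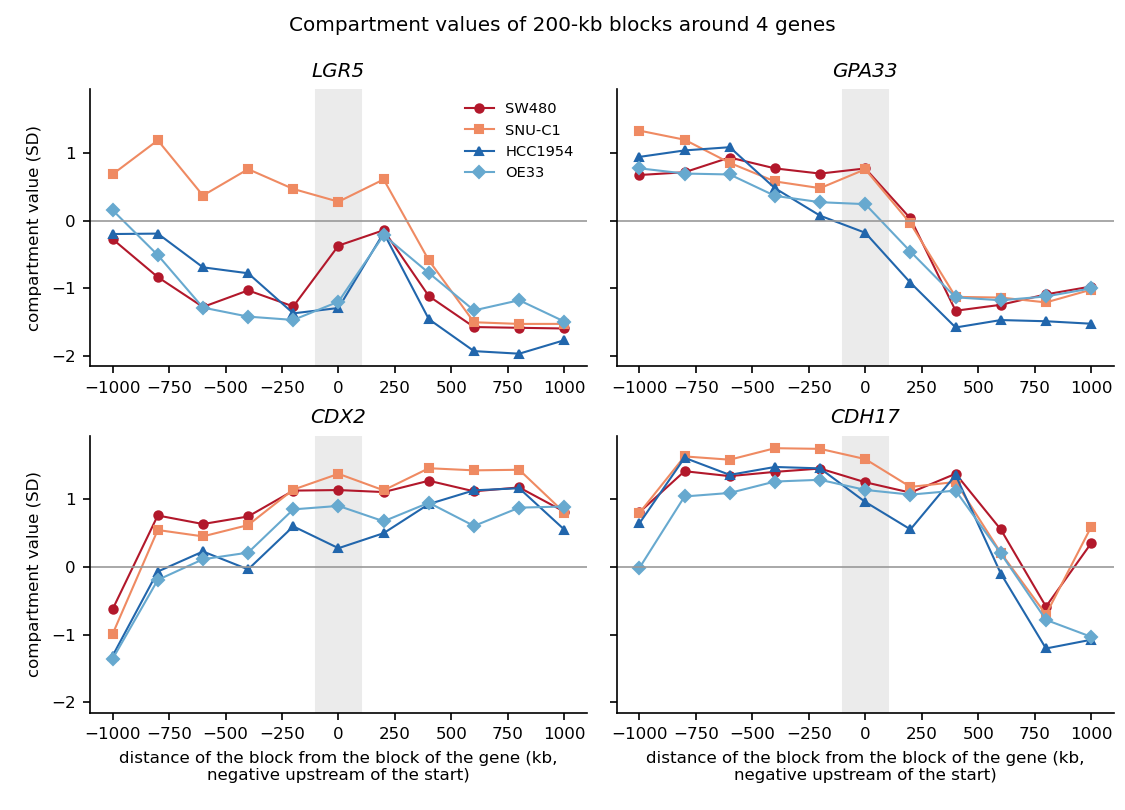
Compartment value (y axis, in SD of the chromosome) of the 11 200-kb blocks around LGR5, GPA33, CDX2 and CDH17 against distance from the block of the gene (x axis, kb, negative upstream), 1 line per cell line, with the block of the gene shaded. SNU-C1 alone is above 0 over most of the LGR5 window, and the values of GPA33 step down downstream of the gene in all 4 lines.

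*HNF4A*, which encodes a nuclear receptor that drives enterocyte genes, has an upstream and a downstream promoter, 45.5 kb apart. Its upstream start lies in a block at 42.8 to 43.0 Mb on chromosome 20, shared with *FITM2*, *GDAP1L1*, *JPH2*, *OSER1* and *R3HDML*. The block had 1.09 in SNU-C1, 1.12 in SW480 (1.17 in replicate 1 and 1.12 in replicate 2), 0.82 in HCC1954 and 0.70 in OE33. All 4 lines were positive, the colorectal lines were 0.026 apart, and the gap to HCC1954 was 0.27, just past the replicate spread. The mean difference was 0.34. Under 5 alternatives the call was lost while the mean difference stayed positive, from 0.10 with blocks of 400 kb to 0.42 with chromosome arms. The next block, which holds the downstream promoter, had 1.22 in SNU-C1, 1.1 in SW480, 1.17 in HCC1954 and 0.93 in OE33, and there the lines overlapped. The 250 bases before each start are given because the pair of promoters fell on either side of the edge of the called block. They come from RefSeq (GRCh38.p14), match GRCh37 base for base, are read 5′ to 3′ on the plus strand, and hold none of the motifs searched, so they carry no capitals.
HNF4A upstream promoter, chr20:42984089-42984338: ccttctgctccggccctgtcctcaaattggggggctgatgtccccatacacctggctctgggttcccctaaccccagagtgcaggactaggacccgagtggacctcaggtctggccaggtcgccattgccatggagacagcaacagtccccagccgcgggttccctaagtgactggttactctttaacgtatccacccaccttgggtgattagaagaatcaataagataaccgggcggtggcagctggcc
HNF4A downstream promoter, chr20:43029629-43029878: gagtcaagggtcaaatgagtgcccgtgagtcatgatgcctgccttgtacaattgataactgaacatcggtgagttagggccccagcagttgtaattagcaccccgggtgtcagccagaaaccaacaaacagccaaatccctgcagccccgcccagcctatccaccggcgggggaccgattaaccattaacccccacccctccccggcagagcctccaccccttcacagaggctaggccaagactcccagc

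*CDX2*, the homeobox factor that sets intestinal identity, lay at 28.4 to 28.6 Mb on chromosome 13 in a block shared with *PDX1* and *URAD*. Its compartment value was 1.38 in SNU-C1, 1.14 in SW480 (1.14 in replicate 1 and 1.17 in replicate 2), 0.28 in HCC1954 and 0.90 in OE33. All 4 were positive, HCC1954 was far below the rest, and the gap of 0.23 between SW480 and OE33 fell short of the replicate spread. With SW480 replicate 2 in place of the pool, and with the expected value over all chromosomes, blocks of 400 kb or a coverage of at least 0.5, the gap passed it. Of the 11 blocks in the window, 6 were called higher in the colorectal lines and 0 lower, where 6.17% of all 200-kb blocks were called higher and 7.56% lower. These blocks are neighbours and share contacts, so they are not 6 separate observations. The largest gap among them, 0.61, was 800 kb upstream of the gene in the block of *MTUS2*, *POMP* and *SLC46A3*, with 0.55 in SNU-C1, 0.76 in SW480, -0.07 in HCC1954 and -0.19 in OE33. SNU-C1 had 2.32 times the coverage of the other lines in this window and 2.27 times over the whole chromosome, and the part of coverage in these values was not tested.

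The promoter of *CDX2* is shown because it held the single match to a CDX motif among the 7 promoters of the 5 members in the RefSeq table. That motif, TTTATT, was searched on both strands and had a match in 16.1% of 34943 promoters, so 1 of 7 is a description only. The capitals mark the match, 180 bases before the start of the gene, which reads as the reverse complement of the motif and has the letters of a polyadenylation signal. TTTATG (9.66% of promoters) and the HNF4 motif CAAAGTCCA (0.326%) had 0 matches in the 7, and GATC, the MboI site, had a match in 1 of 7, a promoter of *KLF5*, against 35.8% of all promoters. *CDX1*, *VIL1*, *LGR5* and *CDH17* are named only.
CDX2 promoter, minus strand, chr13:28543453-28543702: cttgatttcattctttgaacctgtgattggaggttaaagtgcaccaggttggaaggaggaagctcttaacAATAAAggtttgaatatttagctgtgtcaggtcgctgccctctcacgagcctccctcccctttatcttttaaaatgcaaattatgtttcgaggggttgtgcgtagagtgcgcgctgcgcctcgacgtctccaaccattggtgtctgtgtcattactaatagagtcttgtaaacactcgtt

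The other 5 members were not called. *CDH17*, a cadherin of gut epithelium, had 1.6 in SNU-C1, 1.25 in SW480 (1.23 in replicate 1 and 1.2 in replicate 2), 0.96 in HCC1954 and 1.14 in OE33. The colorectal lines were higher by a gap of 0.11. A block 1 Mb downstream of it, with no protein-coding start, had the widest gap in the 9 windows, 1.38, with 0.59 in SNU-C1, 0.35 in SW480, -1.07 in HCC1954 and -1.03 in OE33. *VIL1*, which encodes the brush border protein villin, had 1.5 in SNU-C1, 1.32 in SW480 (1.31 in replicate 1 and 1.41 in replicate 2), 1.2 in HCC1954 and 1.29 in OE33. The colorectal lines again stood higher, by 0.034, which is less than its own replicates differed.

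*CDX1*, the homeobox factor of the crypt, had 1.87 in SNU-C1, 1.35 in SW480 (1.34 in replicate 1 and 1.37 in replicate 2), 1.4 in HCC1954 and 1.5 in OE33. SW480 was the lowest and SNU-C1 the highest, so the groups overlapped. Its block ranked at or above percentile 89.4 among all genes in every line. *KLF5*, a zinc finger factor of proliferating crypt cells, had 1.69 in SNU-C1, 1.36 in SW480 (1.56 in replicate 1 and 1.57 in replicate 2), 1.5 in HCC1954 and 1.27 in OE33. With the pool the groups overlapped and the mean difference was 0.14. The pool lay outside its own replicates by more than the replicates differed. With replicate 1 or replicate 2 in its place, both colorectal lines lay above both others, by less than the replicate spread, and the mean difference was 0.23 or 0.24. *KLF5* is the only protein-coding gene that starts in its block.

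*LGALS4*, the gene of a galectin made by enterocytes, was the single member at which the colorectal lines were lower. It had 0.56 in SNU-C1, 0.27 in SW480 (0.36 in replicate 1 and 0.43 in replicate 2), 0.75 in HCC1954 and 0.80 in OE33. The gap of -0.18 did not pass the replicate spread. On chromosome 19 the axis that followed gene density was the third eigenvector in the SW480 maps and the first in the other lines, so the SW480 value there is not on the same axis. With each chromosome arm taken by itself, *LGALS4* was called lower, with a mean difference of -1.05, and with blocks of 400 kb the mean difference was 0.0063.

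Over the 97 measured blocks of the 9 windows, 11 were called higher in the colorectal lines (6.17% of all blocks were). Of these, 6 were those around *CDX2*. A further 3 were called lower (7.56% of all blocks), 1 of them around *LGALS4*, where SW480 was on another axis. SNU-C1 was the highest of the 4 lines at 6 members and HCC1954 the lowest at 5, and the share of all genes with these ranks was not counted. The difference between the SW480 pool and SNU-C1 ranged from 0.013 at *GPA33* to 0.65 at *LGR5*. It passed 0.255 at *LGR5*, *CDX1*, *CDH17*, *KLF5* and *LGALS4*, and the share of all genes was not counted. At *KLF5* and *LGALS4* it did not pass with either replicate. The replicates had 1.56 and 1.57 at *KLF5* (1.69 in SNU-C1) and 0.36 and 0.43 at *LGALS4* (0.56 in SNU-C1).

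The same rule was applied to other genes of the gut. Of 44 further intestinal genes, 40 could be measured, and 3 were higher and 0 lower in the colorectal lines, beside 4.26% and 4.3% of all genes. The 3 were *FABP1*, a fatty acid carrier of enterocytes, with a gap of 0.93, *AXIN2*, a Wnt target gene, with 0.86, and *REG4*, a secreted lectin, with 0.35. *FABP1* had 0.87 in SNU-C1, 0.81 in SW480, -0.22 in HCC1954 and -0.11 in OE33. *AXIN2* had 1.02, 0.96, -0.68 and 0.10 in the same order, so both genes were positive in both colorectal lines. The median difference over this list was 0.15. Of 11 genes of the mammary lineage, 0 were called higher and 4 lower (*ESR1*, *GATA3*, *TFAP2A* and *FOXA1*), and the other 7 were not called. *GATA3*, a factor of luminal breast epithelium, had -0.48 in SNU-C1, -0.31 in SW480, 0.59 in HCC1954 and 0.84 in OE33. The median difference over the mammary list was -0.13, below that of all genes.

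Insulation is the mean contact frequency across a bin within 1 Mb, as log2 over the mean of the chromosome, and is low at TAD boundaries. At the start bins of the members it ran from -1.07 for *VIL1* in OE33 to 0.91 for *KLF5* in OE33, while the SW480 replicates differed by at most 0.040. Insulation was not corrected for distance, and usable bins upstream of *KLF5* reached only 560 kb. Its high values are thus not on a par with those of the other members. With a coverage of at least 0.5 it had no value. Both colorectal lines were higher by more than the replicate spread of 0.066 at 2 members, *CDX2* and *HNF4A*, and at 22.3% of all genes, so 2 of 9 is the share of the background. No member was lower, and 3.88% of all genes were. The median difference was 0.15 over the members and 0.12 over all genes. Among the other lists, 11 of 38 intestinal genes were higher and 0 lower, with the widest gaps at *CDHR2*, *KCNE3*, *ANXA13*, *TFF3* and *ZNRF3*. Of 11 mammary genes 7 were higher and 0 lower, and of 11 foregut and squamous genes 2 were higher and 1 lower.

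At *CDX2*, insulation was -0.38 in SNU-C1, -0.33 in SW480 (-0.33 in replicate 1 and -0.34 in replicate 2), -0.45 in HCC1954 and -0.77 in OE33. OE33 stood apart, and the gap between SNU-C1 and HCC1954 was 0.071. In read pairs without iterative correction the mean difference at *CDX2* turned to -0.02, and its call was lost. At *HNF4A* the values were -0.22 in SNU-C1, -0.17 in SW480 (-0.16 in replicate 1 and -0.19 in replicate 2), -0.37 in HCC1954 and -0.74 in OE33. Here too OE33 was the lowest, and the gap was 0.15. OE33 had the lowest insulation of the 4 lines at 5 members, and the share of all genes at which it did was not counted. At *CDX1*, SW480, SNU-C1 and HCC1954 were level at -0.42 each, and OE33 had -0.54. At *GPA33* the order was SNU-C1 with -0.17, OE33 with -0.42, SW480 with -0.51 and HCC1954 with -0.69.

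**Figure D3:**
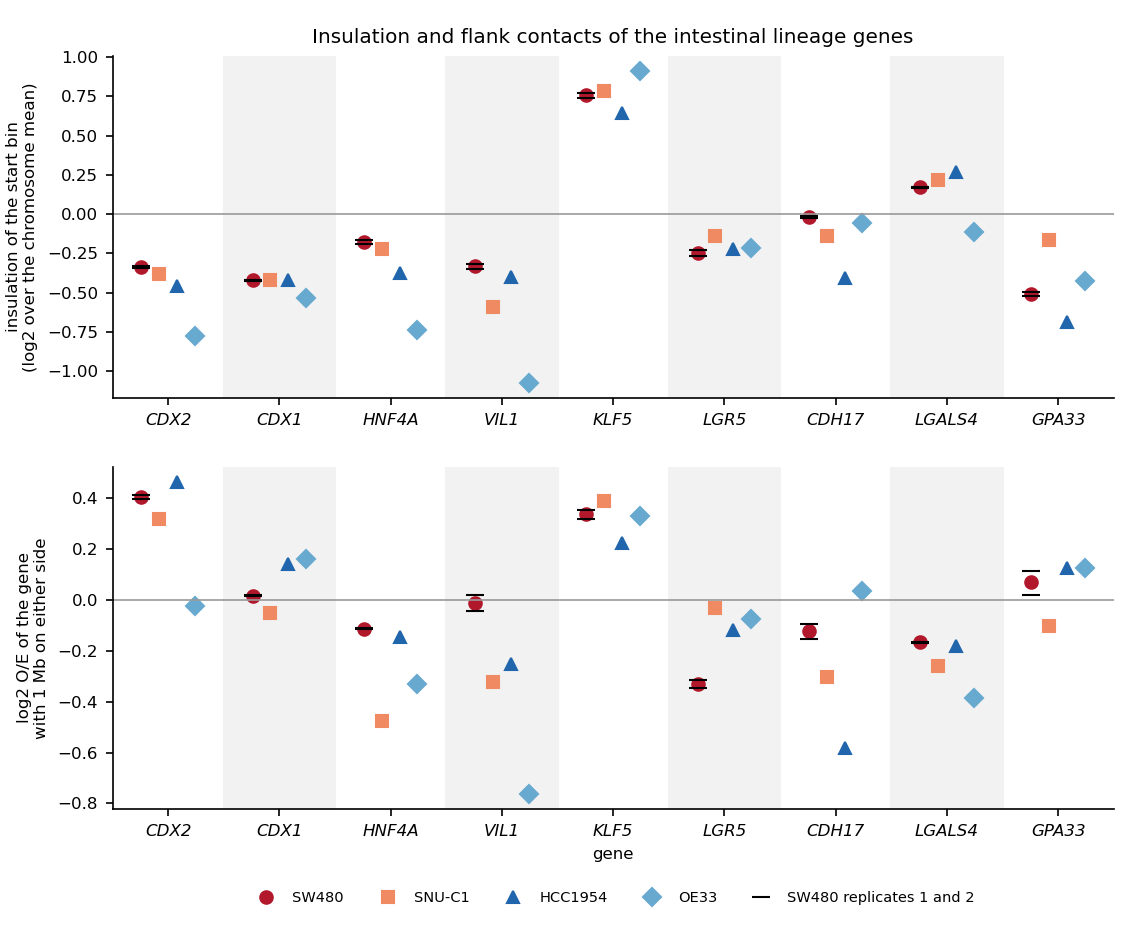
Upper panel, insulation of the start bin (y axis, log2 over the chromosome mean); lower panel, log2 O/E of the bins of the gene with 1 Mb on either side (y axis), for the 9 genes (x axis) in 4 lines, 1 symbol per line, with the SW480 replicates as dashes. OE33 has the lowest insulation at 5 genes (share of all genes not counted). KLF5, with usable bins to only 560 kb upstream, has the highest insulation in all 4 lines.

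Part of the boundaries were at the same place in all lines. From 2327 to 2612 boundaries were called per line, and 1584 of the 2505 of SW480 lay within 2 bins of one in each other line. No member started within 2 bins of a boundary in all 4 lines, and 16.6% of all genes did. The members are too few for their share to be told apart from that of all genes. *CDX2* came nearest over the 4 lines, with a boundary 80 kb upstream in SW480 and HCC1954 and 120 kb upstream in SNU-C1 and OE33, and it had 3 shared boundaries in its window. The boundary downstream of *KLF5* lay 720 kb away in SW480, HCC1954 and OE33 and 760 kb away in SNU-C1, with no other called within 1 Mb of the start in any line, although 12 of the 52 bins of that window were not usable. *GPA33* had no boundary shared by all 4 lines. The one downstream of its start was 40 kb away in HCC1954, 80 kb in OE33, 160 kb in SW480 and 240 kb in SNU-C1. It lay farther out in both colorectal lines, but those of OE33 and SW480 were within the 2 bins that count as shared. Near *CDX1* a boundary within 80 kb upstream was called in SNU-C1, HCC1954 and OE33, with a strength of 0.31, 0.21 and 0.26, and none was called there in SW480. Around *LGALS4* all 4 boundaries of the window were shared.

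Sequence at these boundaries was searched for the CTCF core, 12 bases long, on both strands of GRCh37 in the boundary bin and the bin on either side. Of 16 shared boundaries in the windows of the members, 12 held a match. Among all shared boundaries 52.5% did, and among all usable bins taken with their neighbours 33.4%. A match is a description and not a measured site. The matches at the shared boundaries nearest to *VIL1*, *HNF4A*, *CDX1*, *LGR5*, *LGALS4*, *CDX2* and *KLF5* that held any are given with 6 bases on either side. They were chosen because each other line had a boundary within 2 bins of the SW480 one. The core is in capitals, and each is read 5′ to 3′ on the strand named.
VIL1, minus strand, chr2:218933684-218933707: ttctcaCCACCAGGGGGCagaggg
HNF4A, minus strand, chr20:42721811-42721834: catttaCCAGCAGGGGGCaggttc
CDX1, minus strand, chr5:149815806-149815829: aggtggCCACCAGGTGGCagcatt
LGR5, minus strand, chr12:72294065-72294088: ctttttCCACTAGGTGGCacatgt
LGR5, minus strand, chr12:72393159-72393182: tattatCCACCAGAGGGCaaatta
LGALS4, plus strand, chr19:38724606-38724629: gtttgcCCACCAGAGGGCgctgtg
CDX2, minus strand, chr13:27855749-27855772: attctgCCAGCAGATGGCctttgg
CDX2, plus strand, chr13:27936279-27936302: cgatggCCAGCAGATGGCgccagg
CDX2, plus strand, chr13:27950040-27950063: ctctgtCCACCAGGGGGCttcact
KLF5, plus strand, chr13:74296489-74296512: ccttaaCCAGCAGATGGCtctcag

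The *VIL1* boundary is 320 kb upstream of its start in SW480 and SNU-C1, 280 kb in HCC1954 and 240 kb in OE33. The VIL1 match lies outside the bins beside the HCC1954 and OE33 boundaries, and so does the HNF4A match. For *LGR5* the boundary is 520 kb downstream in SW480 and HCC1954, 480 kb in SNU-C1 and 440 kb in OE33. The farther of its matches lies outside the bins beside the SNU-C1 and OE33 boundaries. The boundary 80 kb upstream of *CDX2* in SW480 held no match, nor did the one 480 kb downstream of *HNF4A*, the one 240 kb upstream of *LGALS4* or the one 560 kb downstream of *CDH17*.

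Contacts of each gene with its flanks were given as O/E, the contact frequency over the mean at the same distance on the same chromosome, between the bins of the gene and the bins up to 1 Mb outside it. On the log2 scale they ran from -0.76 for *VIL1* in OE33 to 0.46 for *CDX2* in HCC1954. No member was higher in both colorectal lines by more than the replicate spread of 0.099, against 17.1% of all genes. One member, *CDX1*, was lower, and 3.43% of all genes were. The median difference was 0.06 over the members and 0.10 over all genes. Of 41 other intestinal genes, *LCT* and *GATA6* were higher and *RNF43* was lower. Of 12 mammary genes 0 were higher and 2 lower, and of 12 foregut and squamous genes 1 was higher and 1 lower.

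*CDX1* had a flank O/E of 0.964 in SNU-C1 (0.928 to 1.0, 2689 read pairs), 1.01 in SW480 (95% interval 0.977 to 1.05, 3267 read pairs), 1.1 in HCC1954 (1.05 to 1.15, 1827 read pairs) and 1.12 in OE33 (1.08 to 1.15, 3908 read pairs). These are exact Poisson intervals and cover counting error only. The lines were close, the log2 gap was -0.12, and the difference was larger downstream, where O/E was 1.0, 1.03, 1.21 and 1.21 in the same order. Upstream it was 0.932, 0.989, 0.995 and 1.02, again lower in both colorectal lines but with SW480 and HCC1954 almost level. The mean difference was -0.17 on the log2 scale. The call was lost with the expected value over all chromosomes, without iterative correction and with a flank of 400 kb, where the mean difference stayed negative at -0.13, -0.37 and -0.21.

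At the other members the groups overlapped or the gap fell short. *CDX2* was lopsided in every line. Its downstream O/E was 2.14 in SNU-C1, 2.16 in SW480, 2.21 in HCC1954 and 1.48 in OE33, and its upstream O/E was 0.345, 0.486, 0.542 and 0.480. The near boundary lies upstream of the gene, and the larger share of its contacts was on the other side in all 4 lines. *KLF5* was lopsided too, with 1.55, 1.51, 1.38 and 1.38 downstream and 1.0, 0.94, 0.88 and 1.1 upstream in the same order. *LGR5* had 1.23 upstream in SNU-C1, and 0.88, 1.01 and 1.02 in SW480, HCC1954 and OE33.

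Single flank bins were then compared, and called where both lines of a group had at least 1.5 times the O/E of both lines of the other and at least 20 read pairs each. Of 432 flank bins, 2 were higher in the colorectal lines, where 1.23% of the flank bins of all genes were, and 8 were lower, where 0.262% were. Bins of a flank are neighbours and not independent, and 4 of the 8 formed an unbroken run downstream of *LGR5*. This run lay 560 to 680 kb from the start, just past the boundary there. At 600 kb the O/E was 0.302 in SNU-C1 (45 read pairs), 0.426 in SW480 (66 read pairs, 0.436 in replicate 1 and 0.416 in replicate 2), 0.880 in HCC1954 (61 read pairs) and 0.903 in OE33 (72 read pairs). The other lines were at least 2.07 times the colorectal lines there, the largest ratio among the called bins of the members. No protein-coding gene starts in the run.

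*GPA33* had 3 lower bins, 600, 920 and 1040 kb downstream of its start. The farthest had the largest ratio, 1.86, with an O/E of 0.609 in SNU-C1, 0.732 in SW480, 1.49 in HCC1954 and 1.36 in OE33, from 15 to 23 read pairs per line. Its SW480 replicates were 0.998 and 0.456, so this bin was set by few reads. At 600 kb the ratio was 1.82 from 36 to 72 read pairs per line, with 1.03 and 0.585 in the SW480 replicates. At 920 kb it was 1.79 from 15 to 25 read pairs, with 0.441 and 0.513 in the replicates. *HNF4A* had 1 lower bin, 440 kb downstream, in which *RIMS4* starts. It had 0.358 in SNU-C1, 0.553 in SW480, 0.875 in HCC1954 and 0.922 in OE33. The 2 higher bins were 880 kb downstream of *CDX2* (1.2 in SNU-C1, 1.94 in SW480, 0.702 in HCC1954 and 0.738 in OE33) and 960 kb downstream of *CDH17* (0.745, 0.744, 0.410 and 0.284 in the same order), within the block of the widest compartment gap. At a ratio of 2, 0 bins were called higher and 2 lower, both in the *LGR5* run.

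**Figure D4:**
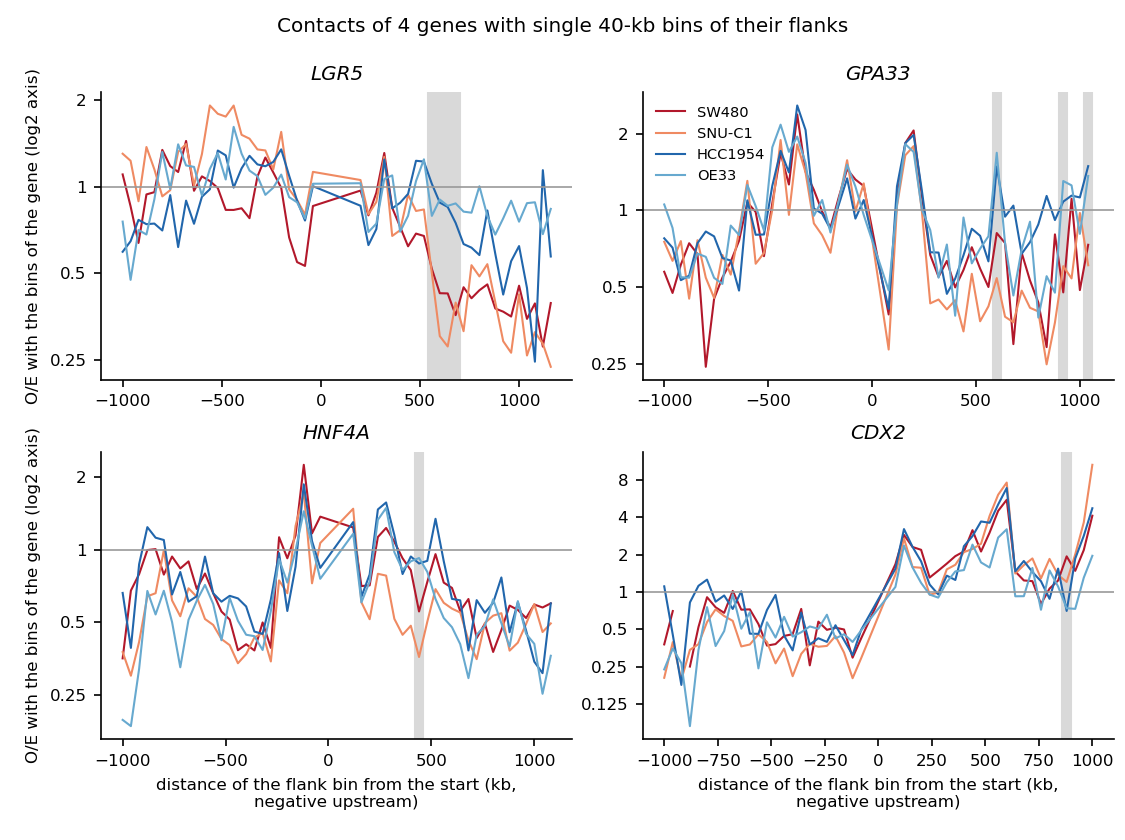
O/E (y axis, log2 axis) of the bins of LGR5, GPA33, HNF4A and CDX2 with single 40-kb bins of their flanks against distance from the start (x axis, kb, negative upstream), 1 line per cell line, with called bins shaded; bins of the gene and those beside it are bridged by a straight line, and bins at 0 are left out. Downstream of LGR5 the SW480 and SNU-C1 curves lie below HCC1954 and OE33 over 4 bins in a row.

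Coverage, in read pairs per bin over the median of the autosomes of the line, was set against the median of the other 3 lines. Of 36 combinations of gene and line, 6 reached 1.5, or 16.7%, against 11.2% over all genes. *CDH17* on chromosome 8 had the highest, 3.06 in HCC1954, where the whole chromosome was at 1.2. SNU-C1 had 1.65 there, SW480 0.588 and OE33 0.524. *CDX2* and *KLF5* on chromosome 13 had 2.32 and 1.78 in SNU-C1. *LGALS4* had 1.62 in SW480 and 1.51 in OE33, where its chromosome was at 1.38 and 1.4. The lowest value was that of *KLF5* in OE33, 0.265, with 0.777 over the chromosome and a median of 1123 read pairs per bin. *CDX1*, *HNF4A*, *VIL1*, *LGR5* and *GPA33* stayed between 0.579 (*HNF4A* in HCC1954) and 1.498 (*VIL1* in OE33). SW480 replicates differed little in this measure, with 1.6 and 1.64 at *LGALS4*. Coverage in Hi-C follows copy number and also how well a bin is cut and aligned, and its part in the other measures was not tested.

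**Figure D5:**
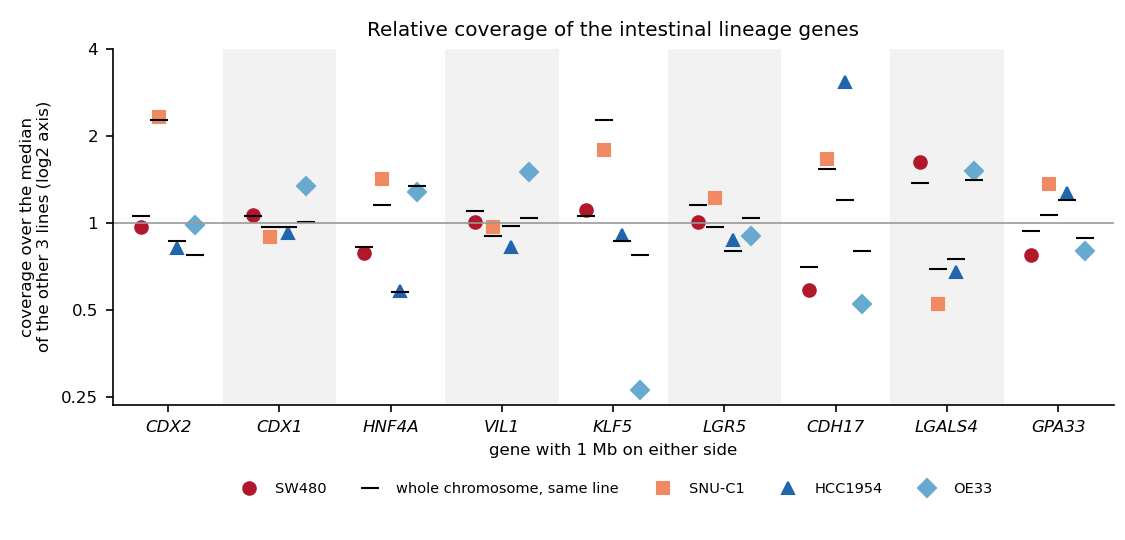
Coverage of each gene with 1 Mb on either side over the median of the other 3 lines (y axis, log2 axis) for the 9 genes (x axis), 1 symbol per line, with the value of the whole chromosome in the same line as a dash. CDH17 in HCC1954 stands at 3.06 and KLF5 in OE33 at 0.265, both away from their chromosomes.

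No contact within the windows was specific to 1 line. Pairs of bins 200 kb to 2 Mb apart, averaged over 3 by 3 bins, were taken as line-specific where O/E reached 4 and, with 0.5 added to every O/E, stood 4 times above the next line or more. Of 9741 bin pairs in the 9 windows, 0 met this in any line, and over all chromosomes 0.00183% did, so few would be found at that rate. The start bins of the members had a median G+C content of 47.7% and 105 MboI sites, against 44.6% and 108 over the start bins of all genes. *LGR5* was the lowest in G+C, with 39.4%, and *LGALS4* had the most MboI sites, 152.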

How the data were processed

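The maps of 4 lines were made by in situ Hi-C with MboI, and experiments were run in duplicate per the methods. The authors used BWA-MEM for alignment to hg19, Picard for the removal of PCR duplicates and iterative correction for the matrices, with versions and read filters not stated. The deposited values are a signal, the corrected contact frequency of 2 bins of 40 kb. The SW480 maps also held pairs within a bin, which were left out. For SNU-C1, HCC1954 and OE33 it is unknown if a map joins several libraries.

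From these values, bin factors were fitted and read pairs recovered as whole numbers within 0.02, for 97.3% to 100% of the values tested in the windows of the members. A bin had to reach 0.25 of the median coverage of each line, which 64933 of 75918 did. The expected value at a distance was the mean of the same chromosome, smoothed beyond 5 Mb over 10% of the distance. Compartment values are the one of the first 3 eigenvectors that followed gene density most closely, from correlated O/E of 200-kb blocks limited to 4 (the first in 45 of 48 cases over the chromosomes of the members). Flank O/E left out pairs closer than 2 bins. Boundaries came from a 1-Mb window and a 200-kb delta with a strength of at least 0.1. Gene positions are canonical transcripts of GENCODE 44 lifted to GRCh37, whose 23 chromosome lengths equalled those of the bins. Calculations were tested on simulated maps.

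The named genes are the 9 members, called genes of the lists (at most 5 per list and measure), the 2 genes most like the member with the widest compartment gap, and genes starting in the called flank bin with the largest ratio of a member. Neighbours named to describe a block, *TSPAN8* among them, were chosen after their values were seen. Compartment values of the foregut and squamous list are not reported here. Members and lists were chosen with earlier results of these data known. All 27 alternatives listed were run. Calculations used NumPy 2.4.6, pandas 2.3.3 and SciPy 1.17.1 in Python 3.11.15, with figures from Matplotlib 3.10.9.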

Additional observations from a re-analysis of the deposited data

How the results depend on the processing

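With blocks scored by contacts with gene-rich against gene-poor blocks, 1 member was called higher in compartment value (*GPA33*) in place of 3. With chromosome arms 1 member was called lower (*LGALS4*) in place of 0, and by any gap 6 were higher and 1 lower. *HNF4A* lost its call under 5 of 8 alternatives, which were all those that changed how the compartment value is computed. A rule of any gap cannot lose a call, and the rest put an SW480 replicate in place of the pool. That call thus rests on the settings. Without iterative correction, insulation gave 1 higher member (*HNF4A*) in place of 2, and the difference at *CDX2* turned to -0.0203.

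The call of *CDX1* in flank O/E was lost, with the difference still negative, with the expected value over all chromosomes, without iterative correction and with a flank of 400 kb, each of which gave 0 lower members. Without iterative correction 1 member was higher (*HNF4A*). By any gap 1 was higher (*KLF5*) and 2 were lower (*CDX1* and *GPA33*). Leaving out 1 SW480 replicate gave 1 to 2 lower members, the second being *GPA33* without replicate 1. At a ratio of 2, single flank bins gave 0 higher and 2 lower in place of 2 and 8, and leaving out a replicate gave 0 to 1 higher, where each replicate has fewer read pairs to pass the minimum of 20.

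Of 177 differences of single members under these settings, 153 stayed on their side of the call rule and 9 lost the call. A further 14 gained a call and 1 called difference reversed. Differences by any gap repeat the main values, so they could only stay or gain a call. Counting differences not called, 20 of the 177 changed sign. Of these, 13 were among the 18 without iterative correction and 5 were with the expected value over all chromosomes. Directions of insulation and flank O/E that were not called thus depend on the correction, and so did that of the called insulation at *CDX2*. The compartment value was not run without iterative correction. The causes were not tested. No paired analysis was possible because only SW480 has numbered replicates. Without tests, calls say only that lines stood farther apart than SW480 replicates did. At 15 to 25 read pairs per line, the called bins 920 and 1040 kb downstream of *GPA33* cannot resolve small differences.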
